A study of Homo sapiens with 6 samples.

Results

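SOX9 siRNA A was compared with a non-targeting control siRNA in VCaP cells, an established line of prostate cancer cells with the TMPRSS2/ERG gene fusion, which expresses SOX9 strongly. The comparison is between 4 of the 6 arrays of the study, the 2 of cells given SOX9 siRNA A and the 2 of cells given the control siRNA. The other 2 arrays came from cells given a second, independent siRNA against the same gene, siRNA B. These 2 arrays also entered the filter, the choice of probe set and the spread behind the limma standard errors and p-values. All groups shared the fusion, the growth in DMEM with serum and the transient transfection, with total RNA taken 72 h later and hybridised to Affymetrix Human Genome U133 Plus 2.0 arrays. The design text calls the duplicates of a group biological, and all come from 1 cell line, so p-values measure only the spread between these samples. Of 19775 genes with a probe set of their own in the annotation, 12431 passed a filter on dim signals and were compared.

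SOX9 is a transcription factor of the HMG-box family, best known for setting the fate of cartilage, testis and several epithelial progenitors. It binds short A/T-rich elements with a core of the kind AACAATG or AACAAAG and bends the DNA there. In the adult prostate it is found in basal cells, and in ERG-fusion prostate cancer cells the SOX9 gene is transcribed under the influence of ERG. SOX9 is also tied to WNT signalling, in which secreted WNT ligands act through Frizzled and LRP receptors to let beta-catenin enter the nucleus and activate TCF/LEF target genes.

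Because SOX9 is a DNA-binding factor, the 250 bases before the RefSeq start sites (GRCh38.p14) were searched for the letters ACAAAG and ACAATG on both strands for the genes described most closely here. They are the 13 genes at least 2-fold apart from control in each siRNA A array and SLC30A4, a set chosen after values were seen. Of these 14 genes, 11 had an entry in the sequence table, 17 entries in all, since some have several start sites. A match was found in 6 of the 17 entries: 1 of DDC, that of MMP10, 2 of CDH26 and 2 of ANHX. The 2 ANHX windows overlap and hold the same match, which is counted in both. ANHX also passed the filter on dim signals only through its siRNA A arrays. Over all 35116 entries, 13.7% held ACAAAG, 9.29% held ACAATG and 21.2% held either, overlapping matches included. HMGN2P46, NPY6R and SALL4 are named only. The sequences shown are those of the protein-coding gene that passed the test (DDC, both start sites), of MMP10 and CDH26 (first start site), which hold a match, and of COXFA4L3 and NPY, which hold none. Each runs 5′ to 3′ on the gene's strand and ends at the base before the start site, with matches in capitals (CTTTGT is ACAAAG and CATTGT is ACAATG on the opposite strand).
DDC, first start site, chr7:50565406-50565655, minus strand: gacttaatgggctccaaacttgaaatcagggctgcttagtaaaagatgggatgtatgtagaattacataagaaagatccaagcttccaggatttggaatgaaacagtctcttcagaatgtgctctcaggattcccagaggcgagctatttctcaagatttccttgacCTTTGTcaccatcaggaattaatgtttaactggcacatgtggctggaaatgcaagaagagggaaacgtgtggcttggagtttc
DDC, second start site, chr7:50561072-50561321, minus strand: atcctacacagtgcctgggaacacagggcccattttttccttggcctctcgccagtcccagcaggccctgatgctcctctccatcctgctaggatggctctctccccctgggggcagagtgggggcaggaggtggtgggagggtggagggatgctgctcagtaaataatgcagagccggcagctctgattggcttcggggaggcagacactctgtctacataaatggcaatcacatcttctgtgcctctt
MMP10, chr11:102780629-102780878, minus strand: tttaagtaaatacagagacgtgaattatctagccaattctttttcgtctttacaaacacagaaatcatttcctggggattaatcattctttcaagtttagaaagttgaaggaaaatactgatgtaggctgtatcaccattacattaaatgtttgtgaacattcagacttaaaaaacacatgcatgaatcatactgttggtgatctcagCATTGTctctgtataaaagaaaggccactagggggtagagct
CDH26, first start site, chr20:59958173-59958422, plus strand: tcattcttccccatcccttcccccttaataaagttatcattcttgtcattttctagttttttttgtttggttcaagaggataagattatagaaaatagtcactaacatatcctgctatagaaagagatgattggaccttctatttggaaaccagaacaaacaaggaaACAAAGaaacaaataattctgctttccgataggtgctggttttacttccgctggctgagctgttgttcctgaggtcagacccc
COXFA4L3, chr15:45430360-45430609, plus strand: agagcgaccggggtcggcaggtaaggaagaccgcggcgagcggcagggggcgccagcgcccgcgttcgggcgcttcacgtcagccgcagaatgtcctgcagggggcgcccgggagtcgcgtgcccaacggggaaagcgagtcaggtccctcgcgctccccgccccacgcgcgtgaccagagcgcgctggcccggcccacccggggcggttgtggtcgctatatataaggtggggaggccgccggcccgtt
NPY, chr7:24283940-24284189, plus strand: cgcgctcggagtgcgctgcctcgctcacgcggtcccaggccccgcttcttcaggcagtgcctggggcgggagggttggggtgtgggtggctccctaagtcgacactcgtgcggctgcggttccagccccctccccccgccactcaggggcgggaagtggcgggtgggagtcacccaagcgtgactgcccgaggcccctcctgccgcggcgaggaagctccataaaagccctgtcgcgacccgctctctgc
A match is a run of letters and not a measured binding site, and no binding data were used here.

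The values are MAS5 signals, which summarise the probes of a probe set on a linear scale of brightness, and differences are given on log2(signal + 16), where 1 unit is 2-fold. This scale understates the change of dim genes. Median signals of the 6 arrays ran from 21.2 to 26.3 and 2%-trimmed means from 143.6 to 190.0. All 6 luminal prostate markers with a probe set of their own were above the filter, at 569.1 to 4972.0, and ERG read 1353 to 2726. Of the 12 fibroblast, leukocyte and endothelial markers, 3 passed the filter, at most 222.9, and KRT5 and KRT14, basal keratins, read at most 51.5.

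SOX9 itself, the targeted gene, was below control with siRNA A on both of its probe sets, by amounts that did not pass the test. In RNA pooled from many cells, a lower level in every cell and a loss in some cells cannot be told apart. On the probe set used for the gene, that of the higher mean over all arrays, the signal was 1108 and 672.6 in siRNA A replicates 1 and 2 and 1469 and 1126 in control replicates 1 and 2. The higher siRNA A array and the lower control array nearly touched, and the log2 difference was -0.57 ± 0.34 (limma standard error, 2 arrays a group), with a limma adjusted p of 0.999 and 0.53 with the replicate number as a block. The second SOX9 probe set read 860.8 and 585.8 with siRNA A against 1558 and 1269.6 with control, a log2 difference of -0.97. Its log2 gap between the nearest arrays was -0.55, against -0.02 on the first probe set. With siRNA B the first probe set read 609.3 and 333.5. Both siRNA B arrays were below both siRNA A arrays, but siRNA A against siRNA B missed the threshold (log2 difference 0.91, adjusted p = 0.43).

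Few genes separated from control by more than the spread. Limma called 2 of 12431 genes (0.0161%) at an adjusted p below 0.05, DDC and HMGN2P46, both higher with siRNA A. At an unadjusted p below 0.05 there were 587 genes, 454 of them lower. With the replicate number as a block the same test called 224 genes (1.8%), 53 higher and 171 lower, but in 27 of them the siRNA A and control arrays overlapped. Blocked p-values take their spread from the intensity trend alone and can be too small. The block also fits 1 shift between replicate numbers for all groups. Around the group means, same-numbered arrays correlated at 0.18 for each siRNA with control and at 0.63 between the siRNAs. A gene whose difference rests mainly on siRNA A replicate 2 can thus be called with the block. Neither call held after quantile normalization, with a common trimmed mean or without the filter on dim genes, and DDC also lost its call with median centring and with the median over its probe sets. The unblocked count was 0 without siRNA A replicate 2 (143 genes at an unadjusted p below 0.05), 6 without siRNA A replicate 1, 7 without control replicate 1 and 18 without control replicate 2.

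A second description used no test and asked which genes stood at least 2-fold apart between the nearest arrays of both groups, so that the difference holds in each siRNA A array against each control array. It found 7 genes higher (0.0563% of those tested) and 6 lower (0.0483%). Genes picked this way had to do well in a test on the same arrays, so the p-values printed for them describe them and are no further support. With no minimum distance, both siRNA A arrays lay above both control arrays for 1787 genes (14.4%) and below both for 2962 genes (23.8%), so 37.6% of the separated genes were higher. That share depends on scaling, at 48.5% after quantile normalization, 55.6% after median centring and 46.9% with a common trimmed mean. Replicate 1 met the 2-fold line for fewer genes than replicate 2. Judged by replicate 2 alone there were 84 genes higher and 403 lower. Judged by replicate 1 alone there were 9 and 23. Without control replicate 1 the counts were 17 and 24, and without control replicate 2 they were 32 and 17.

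The 7 genes higher in each siRNA A array hold a monoamine enzyme, a neuropeptide, a protease, a cadherin, a mitochondrial protein, a homeobox gene and a transcribed pseudogene. DDC encodes aromatic L-amino acid decarboxylase, which makes dopamine and serotonin from their precursors and is known as a partner of the androgen receptor. Its signal was 207.6 and 331.4 in control replicates 1 and 2 and 1139.7 and 1695 in siRNA A replicates 1 and 2. Both siRNA A arrays were far above both controls, and the log2 difference was 2.34 ± 0.32, adjusted p = 0.011. A second, dim DDC probe set read 3.8 and 2.0 against 12.4 and 13.7. NPY, neuropeptide Y, was the brightest of the 7, at 1857 and 3132 in control and 6292 and 11396 with siRNA A. Its replicate 2 arrays were the higher ones in both groups, and the log2 difference of 1.80 ± 0.38 did not pass without the block (adjusted p = 0.28, 9.1e-14 with it).

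HMGN2P46, a pseudogene of the chromatin protein gene HMGN2, read 45.0 and 58.5 in control and 287.4 and 381.0 with siRNA A. This was the widest gap of any tested gene at the offset of 16 (at an offset of 64 the gap of DDC was wider, 1.61 against 1.52), with a log2 difference of 2.36 ± 0.27 and an adjusted p of 0.0027. It rests on 1 probe set of a class that can bind related transcripts, so its identity is less certain. COXFA4L3, a small mitochondrial protein related to a cytochrome c oxidase subunit, read 412.0 and 385.8 in control and 1246 and 908.0 with siRNA A. Its control arrays lay close together, and the log2 difference was 1.38 ± 0.28 (adjusted p = 0.28, 0.00026 with the block).

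MMP10, the secreted metalloproteinase stromelysin-2, read 66.7 and 67.6 in control and 176.0 and 192.0 with siRNA A, a log2 difference of 1.27 ± 0.30. The arrays of each group were close to each other and the groups did not overlap. CDH26, a cadherin of epithelial cells, read 117.8 and 151.7 in control and 384.9 and 342.1 with siRNA A, and a second CDH26 probe set went from 43.0 and 49.6 to 113.8 and 123.0. One further CDH26 probe set, near the filter, overlapped between groups at 27.9 and 24.5 against 30.9 and 15.5. ANHX, a homeobox gene, was the dimmest, at 8.6 and 18.8 in control, below the filter level of 22.0, and 59.7 and 56.2 with siRNA A. It was the 1 of the 13 genes that passed the filter only through its high group, its mean over the other 4 arrays being 4.85 on the log2 scale, so it had to differ and no p is given for it. The block gave adjusted p-values of 0.00056 for MMP10 and 0.00035 for CDH26, against 0.48 and 0.40 without it.

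**Figure D1:**
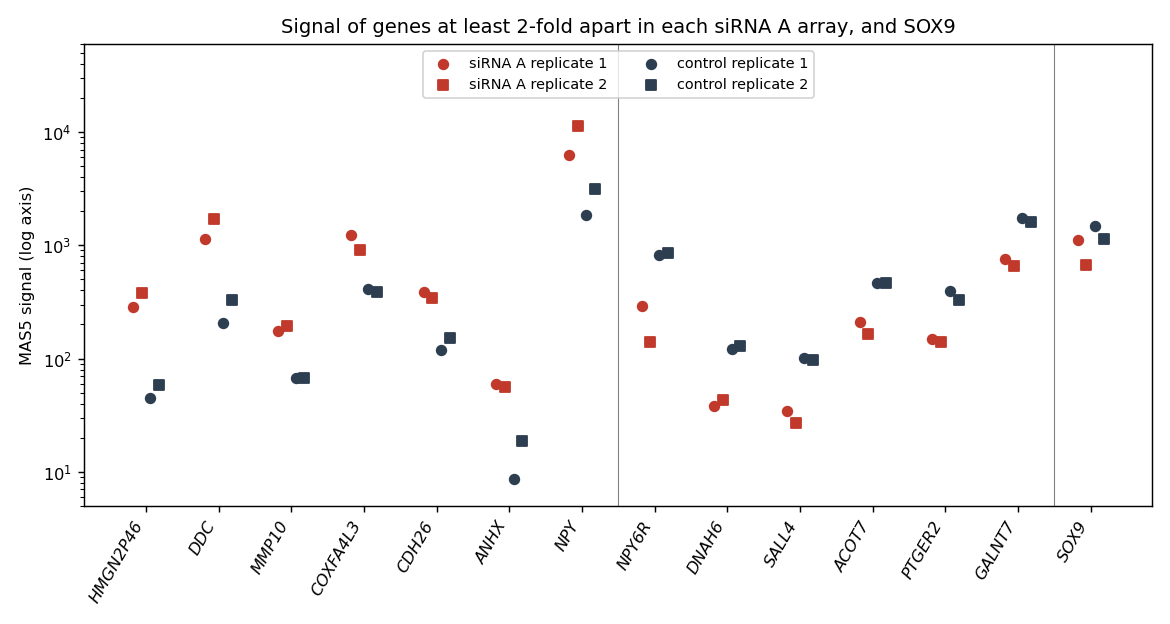
MAS5 signal (log axis) of the 7 genes higher and the 6 genes lower in each siRNA A array, and of SOX9, in siRNA A replicates 1 and 2 (red) and control replicates 1 and 2 (dark), each point 1 array. The red and dark points are at least 2-fold apart on log2(signal + 16) for the 13 genes. For SOX9, on the probe set used for the gene, the nearest arrays nearly meet.

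The 6 genes lower in each siRNA A array include a pair of receptors and a pair of metabolic or glycan enzymes. NPY6R, the neuropeptide Y receptor Y6 gene, which is a pseudogene in humans, read 814.9 and 850.3 in control and 288.7 and 141.1 with siRNA A. A second NPY6R probe set went from 109.5 and 92.8 to 27.2 and 11.1, so both separate, and the log2 difference on the first was -1.96 ± 0.38 (adjusted p = 0.28, 2.9e-09 with the block). PTGER2, the prostaglandin E2 receptor EP2, read 393.8 and 330.4 in control and 148.6 and 139.2 with siRNA A. Its siRNA A arrays were nearly equal, and the log2 difference was -1.24 ± 0.33.

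GALNT7, a transferase of mucin-type O-linked glycosylation, was the brightest of the 6, at 1734 and 1598 in control and 756.8 and 656.7 with siRNA A. Its second probe set read 1077 and 1009 against 439.7 and 438.6, again with no overlap. ACOT7, an acyl-CoA thioesterase that cleaves long-chain fatty acyl-CoA, read 468.3 and 464.8 in control and 211.3 and 163.1 with siRNA A. Its second probe set differed less, at 87.0 and 78.0 against 54.5 and 43.1. SALL4, a zinc finger factor of pluripotent cells, read 100.1 and 97.5 in control and 34.7 and 27.1 with siRNA A. DNAH6, an axonemal dynein heavy chain, read 121.2 and 128.6 in control and 38.1 and 42.9 with siRNA A. The log2 differences of GALNT7, ACOT7, SALL4 and DNAH6 were -1.22, -1.26, -1.30 and -1.32, with adjusted p-values of 0.49, 0.40, 0.38 and 0.28. With the block these were 0.0016, 0.0013, 0.0023 and 0.00061, and PTGER2 went from 0.61 to 0.0014.

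The 2-fold line cut through a continuous range. Just inside it on the higher side was NPY, with a gap of 1.003 between the nearest arrays, and just outside were SLC30A4 at 0.95 and SHH at 0.95. SLC30A4, which loads zinc into vesicles, read 1394 and 2058 in control and 4005 and 5756 with siRNA A on its brightest probe set. Its other 2 probe sets also separated, 1 of them inside the line with a gap of 1.11. SHH, the Sonic hedgehog ligand, read 90.7 and 86.8 in control and 190.6 and 505.8 with siRNA A, so its replicate 2 array was the higher by far. ARG2, mitochondrial arginase, likewise read 387.2 and 581.6 in control and 1014 and 2486 with siRNA A. The adjusted p was 0.23, 0.87 and 0.61 for SLC30A4, SHH and ARG2 without the block and 9.5e-09, 9.2e-07 and 5.0e-07 with it. Further genes of the 15 with the widest upward gap were CLSTN2, RGS4, ZNF76, PICK1 and MS4A8, with log2 differences of 1.12, 0.97, 0.96, 1.02 and 1.11.

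On the lower side GALNT7 was just inside the line at -1.06, and IGSF3, BTG3, MET, FZD7 and GABRA5 lay just outside at -0.99, -0.98, -0.97, -0.97 and -0.97. IGSF3, an immunoglobulin-domain membrane protein, read 594.5 and 494.2 in control and 240.7 and 139.4 with siRNA A. Its other probe sets are dim and did not follow, and with the median over its probe sets the log2 difference was -0.11 in place of -1.48. BTG3, an antiproliferative protein of the BTG family, read 1047 and 923.7 in control and 459.7 and 133.2 with siRNA A, so replicate 2 was much the lower. Another BTG3 probe set was inside the line, with a gap of -1.02. FZD7, a Frizzled receptor for WNT ligands, read 161.9 and 201.5 in control and 74.8 and 34.7 with siRNA A, and its second probe set 91.7 and 104.5 against 61.6 and 25.4. PTH2R, ZNF91, DLG5-AS1 and DECR2 completed the 15 widest downward gaps, with log2 differences of -1.80, -1.09, -1.30 and -1.17. Without their control arrays the means of PTH2R and GABRA5 fell below the filter on dim signals, so these genes had to differ. The adjusted p of FZD7 was 0.34 without and 2.8e-05 with the block, and that of BTG3 0.49 and 2.2e-08.

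The 2 siRNA A arrays were unequally far from control. Across the 12431 tested genes, replicate 1 correlated with the control arrays at 0.986 and 0.988, about as closely as these did with each other (0.988), and replicate 2 at 0.960 and 0.968. These are correlations across genes, which are not independent replicates. Of the 84 genes at least 2-fold higher in replicate 2, replicate 1 was also above both controls, by any distance, for 63 (75.0%), and over all tested genes it was so for 3475 (27.95%). Of the 403 lower in replicate 2, it was below both for 302 (74.9%), against 4140 of all tested genes (33.3%). Both replicates were set against the same 2 controls, which by itself raises such shares, so they are a description. At 2-fold in replicate 1 as well, 7 (8.33%) and 6 (1.49%) remained, which were 77.8% of the 9 genes higher and 26.1% of the 23 lower in replicate 1.

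Some genes were far from control in replicate 2 while replicate 1 sat within 0.25 log2 units of the control mean. CCL2, a monocyte-attracting chemokine, read 2004 and 1883 in control and 2134 and 31.3 with siRNA A, and CXCL8, a neutrophil-attracting chemokine, 1060.2 and 784.0 against 1079.9 and 58.7. For both, replicate 1 was at or above the controls, and replicate 2 was far below both. The replicate 2 array of siRNA B was low as well, at 47.9 for CCL2 and 95.7 for CXCL8, while control replicate 2 was not. LYPD6, PLEKHA2, SCUBE2, P4HA1, GJB2 and CXCL5 were the others named for a low replicate 2. For GJB2 and CXCL5 replicate 1 was slightly below both controls, at 294.0 and 56.9 against 336.8 and 339.6 and 281.0 and 49.9 against 300.6 and 352.3. P4HA1, a collagen prolyl hydroxylase subunit, read 3554 and 2762 in control and 3029 and 540.6 with siRNA A. In the upward direction ID1, an inhibitor of basic helix-loop-helix factors, read 416.8 and 637.1 in control and 481.3 and 2372 with siRNA A, and RORB, an orphan nuclear receptor, 157.3 and 223.1 against 205.2 and 885.1. TLE4, DPYD, HGF, S100P, IDI1 and TOX were the others in that direction. These genes are given as values of 1 array and not as changes with siRNA A.

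**Figure D2:**
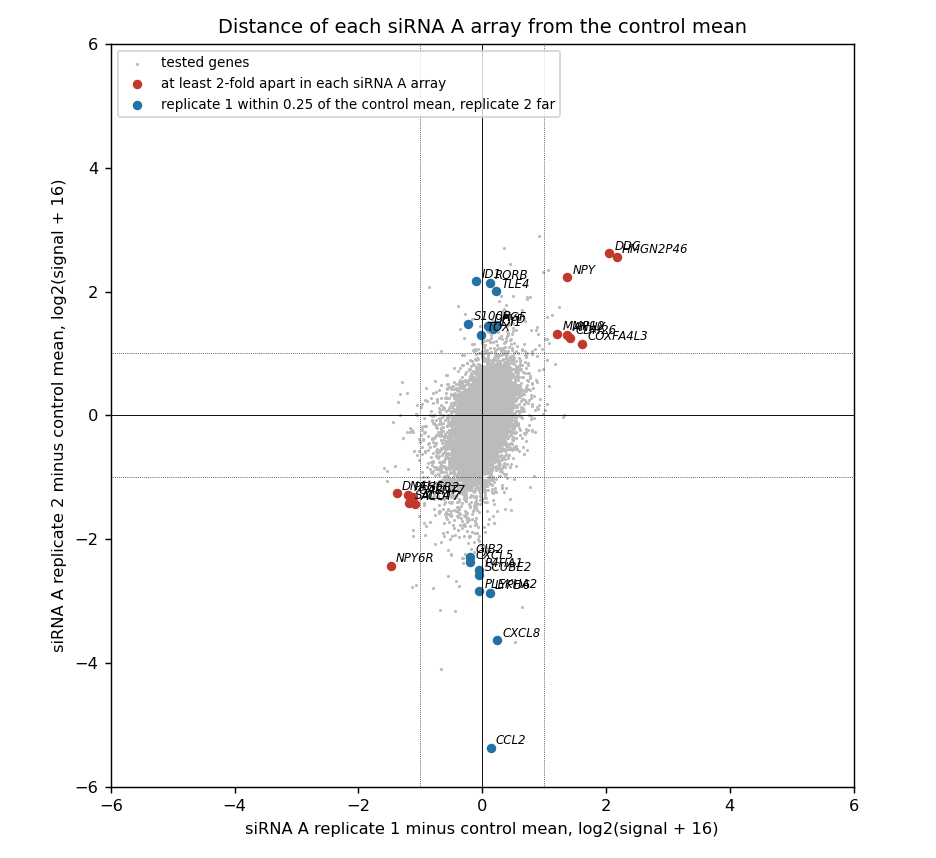
Distance of siRNA A replicate 1 (horizontal) and replicate 2 (vertical) from the control mean, in log2(signal + 16), for 12431 tested genes (grey), the 13 genes at least 2-fold apart in each array (red) and the 16 genes near the control mean in replicate 1 and far from it in replicate 2 (blue). Dotted lines mark 2-fold, and the grey cloud is taller than wide, with 84 and 403 genes past 2-fold in replicate 2 against 9 and 23 in replicate 1.

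Gene lists drawn up for the pathways of these cells were described by how many members had both siRNA A arrays above, or both below, both controls. Over all tested genes those shares were 14.4% and 23.8%, and the median log2 difference was -0.05. The block called 53 of the 12431 tested genes higher and 171 lower. The 43 lists held 1336 symbols, of which 949 were tested.

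Mitosis and G2/M genes lay higher with siRNA A. Of 42 tested members, 30 had both siRNA A arrays above both controls (71.4%) and 1 had both below, and the median was 0.37 log2 units, or 0.19 in replicate 1 and 0.56 in replicate 2. CDC20, which activates the anaphase-promoting complex, read 302.7 and 351.1 in control and 462.8 and 998.3 with siRNA A, and was the 1 member called with the block. CENPA, the centromeric histone, read 180.0 and 172.1 against 250.9 and 336.3, and PLK1, a mitotic kinase, 36.7 and 36.9 against 53.2 and 83.1. The counts were 33 or 34 above under the 3 other scalings, and the median was 0.24 without control replicate 1 and 0.19 without siRNA A replicate 2. With siRNA B the median of the same list was -0.16, or -0.43 in siRNA B replicate 1 and 0.18 in siRNA B replicate 2. The direct test of siRNA A against siRNA B called 0 members. DNA replication and G1/S genes had 9 of 47 members above and 0 below, with a median of 0.11 that became -0.14 without control replicate 1.

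Unfolded protein response genes, the chaperones and folding enzymes of the endoplasmic reticulum, had 11 of 25 members above and 0 below, with a median of 0.34. HSPA5, the chaperone BiP, read 4399.7 and 7035 in control and 7509.5 and 8714 with siRNA A, and MANF 973.1 and 2048 against 2292 and 2575. Control replicate 1 was the low array for both, the list's median in that array being -0.23 from the control mean, and without it the siRNA A median was 0.10. No member passed with or without the block.

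Zinc transporters and metallothioneins, which move and buffer zinc, had 11 of 28 members above and 5 below, with a median of 0.13 that became -0.02 without control replicate 1. With the block 53 of all 12431 tested genes were called higher, among them 5 members of this list. Beside SLC30A4 these included MT1F (662.0 and 612.3 against 1066 and 2445), MT2A (2610.4 and 2354 against 3639 and 6468) and MT1E (1460.3 and 1485 against 2084 and 4389.8). Both siRNA A arrays of each metallothionein were above both controls, replicate 2 the more so, while siRNA B read 1966 and 3029 for MT2A. The differences between siRNA A and siRNA B did not pass the test for MT1F, MT2A or MT1E (adjusted p = 0.24, 0.24 and 0.31). Metallothioneins are near-identical in sequence, so signal can be shared between them.

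Cholesterol synthesis and uptake genes had 9 of 25 members above and 5 below, with a median of 0.38, which came from replicate 2: 0.04 in replicate 1 and 0.77 in replicate 2. INSIG1, the sterol-regulated brake on SREBP processing, read 1375 and 1786 in control and 1960.3 and 5101 with siRNA A, and STARD4, a sterol carrier, 96.9 and 81.0 against 121.0 and 319.7. Both were called with the block and neither without.

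Hypoxia and glycolysis genes had 1 of 40 members above and 18 below, with a median of -0.37, again from replicate 2 (-0.03 in replicate 1 and -0.68 in replicate 2). EGLN3, an oxygen-sensing prolyl hydroxylase, read 176.3 and 121.8 in control and 104.2 and 26.8 with siRNA A, and the glycolytic enzyme ENO1 8121 and 7403 against 7218 and 3548. With the block 8 members were called lower, against 171 of all 12431 tested genes. The count below was 8 under each of the 3 other scalings. Chemokines and NF-kappaB genes had 0 of 23 above and 9 below, with a median of -0.80 that was 0.05 in replicate 1 and -1.46 in replicate 2, and 8 were called lower with the block. TNFAIP3, a feedback inhibitor of NF-kappaB, read 235.3 and 249.7 in control and 208.4 and 50.6 with siRNA A.

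Lists of the WNT pathway had no common direction among ligands and receptors. Of 20 tested ligands, receptors and receptor regulators, 5 lay above and 5 below, with a median of 0.00 that ran from -0.26 (without siRNA A replicate 1) to 0.12 (without control replicate 2). FZD7 and WLS were called lower with the block. WLS, which carries WNT ligands to the cell surface, read 257.3 and 350.3 in control and 214.5 and 94.0 with siRNA A. Among 22 antagonists and destruction complex genes 5 lay above and 9 below (median -0.23, and -0.10 without siRNA A replicate 2). Among 15 genes of the beta-catenin and TCF complex 3 lay above and 5 below (median 0.06, and -0.07 without control replicate 1). Beta-catenin target genes had 1 of 25 above and 10 below, with a median of -0.27, or -0.13 without siRNA A replicate 2. NRCAM, a neural adhesion molecule on that list, read 655.9 and 520.7 in control and 339.5 and 181.3 with siRNA A (adjusted p = 0.0038 with the block, 0.63 without).

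SOX factors, SOX9 among them, had 0 of 8 above and 4 below (median -0.36, or -0.19 without siRNA A replicate 2). A list of cartilage, matrix and other genes named as bound by SOX9 had 2 of 12 above and 2 below (median 0.05, and -0.01 without siRNA A replicate 1). Receptor tyrosine kinases and ligands had 2 of 30 above and 15 below, with a median of -0.26, or -0.11 without siRNA A replicate 2. ERBB3, a receptor of neuregulins, read 357.2 and 331.7 in control and 217.7 and 117.5 with siRNA A, and KITLG, the ligand of KIT, 213.5 and 190.0 against 102.2 and 111.7. NOTCH pathway genes had 2 of 27 above and 11 below (median -0.26, -0.11 without siRNA A replicate 2 and -0.13 without control replicate 2). HES1, a NOTCH target, read 829.2 and 618.0 in control and 505.3 and 344.1 with siRNA A, and the ligand JAG1 was higher at 589.8 and 590.3 against 915.7 and 1051.

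Androgen receptor activated genes had 10 of 31 members above and 5 below, with a median of 0.04. With 1 array left out that median ran from 0.01 to 0.32 (without control replicate 2), and under the 3 other scalings 13 lay above and 2 below. SLC45A3, the prostate protein prostein, read 317.3 and 338.4 in control and 531.3 and 1466 with siRNA A, and HOMER2, a scaffold protein, 899.4 and 738.0 against 469.5 and 324.0. The block called SLC45A3 higher (adjusted p = 0.0003, 0.64 without) and HOMER2 lower (0.02, 0.71 without). STEAP1 and STEAP2, membrane metalloreductase family proteins of prostate cells, read 4687 and 5755 against 6756 and 8699 and 2396 and 2859 against 3820.0 and 4802, and neither passed. Luminal marker genes had 3 of 13 above and 2 below (median -0.04, and 0.07 without siRNA A replicate 2).

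Nuclear receptor genes had 3 of 26 above and 9 below (median -0.07, and -0.01 without control replicate 2). ESRRG, an orphan receptor, read 331.7 and 144.0 in control and 91.8 and 18.4 with siRNA A, a log2 difference of -1.95 ± 0.49 (adjusted p = 6.9e-09 with the block, 0.55 without). PLAT, tissue plasminogen activator, read 311.3 and 257.4 in control and 171.8 and 1.5 with siRNA A. Both siRNA A arrays were below both controls, and the fold rests on replicate 2, in which PLAT was near the bottom of the scale. Cytosolic ribosomal protein genes had 0 of 31 above and 18 below, but by little (median -0.11), and 5 below with 3 above after quantile normalization. Oxidative phosphorylation genes had 1 of 31 above and 13 below (median -0.05). Under the other scalings 3 or 4 lay above and 8 or 9 below, and the median was 0.01 after quantile normalization or median centring.

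Lists of lipid and steroid enzymes held members in both directions. Fatty acid synthesis and storage genes had 4 of 29 above and 5 below (median -0.02, and 0.04 after quantile normalization). ACSL5, a long-chain acyl-CoA synthetase, read 994.6 and 877.6 in control and 631.9 and 142.2 with siRNA A, and was called lower with the block (1.6e-05, against 0.76 without). Steroid conversion and glucuronidation genes had 4 of 17 above and 5 below (median 0.15, and 0.00 without control replicate 1). STS, the steroid sulfatase that frees steroids from their sulfates, read 47.9 and 62.0 in control and 84.2 and 251.7 with siRNA A. SULT2B1, a sulfotransferase that works the other way, read 47.3 and 51.2 and then 18.7 and 2.9. With the block STS was called higher (0.0014), and it did not pass without the block. Without its control arrays the mean of SULT2B1 fell below the filter on dim signals, so it had to differ and no p is given for it.

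Genes of p53 targets and apoptosis had 5 of 28 above and 8 below (median -0.05, and 0.03 without siRNA A replicate 2). TNFRSF10B, a death receptor for TRAIL, read 413.0 and 454.1 in control and 289.4 and 141.3 with siRNA A. GADD45A, a stress gene, read 2144 and 1943 and then 1638 and 399.8, so its replicate 2 array was by far the lower. Both were called lower with the block, at 0.016 and 0.00041, and not without it. Plasminogen activators and metalloproteinases had 3 of 22 above and 10 below (median -0.18, and -0.11 without siRNA A replicate 2), with MMP10 and ADAMTS1 called higher and 2 members lower with the block. ADAMTS1, a secreted protease that cleaves proteoglycans, read 297.6 and 453.3 in control and 580.9 and 1229 with siRNA A.

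The remaining 19 lists, of 3 to 32 tested members each, had medians between -0.44 and 0.27. Among their members, IRS1, the adaptor of the insulin receptor, read 175.7 and 199.3 in control and 119.5 and 49.0 with siRNA A. ALDH1A1, a retinal dehydrogenase used as a stem cell marker, read 787.0 and 648.7 and then 495.7 and 223.8. ACVR2B, an activin receptor, read 421.2 and 393.9 and then 282.6 and 129.2. In these 3 genes both siRNA A arrays were below both controls, with replicate 2 the lower, and each was called with the block (0.0049, 0.015 and 0.018) but not without it. IRS1 turned sign when the median over its probe sets was used.

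**Figure D3:**
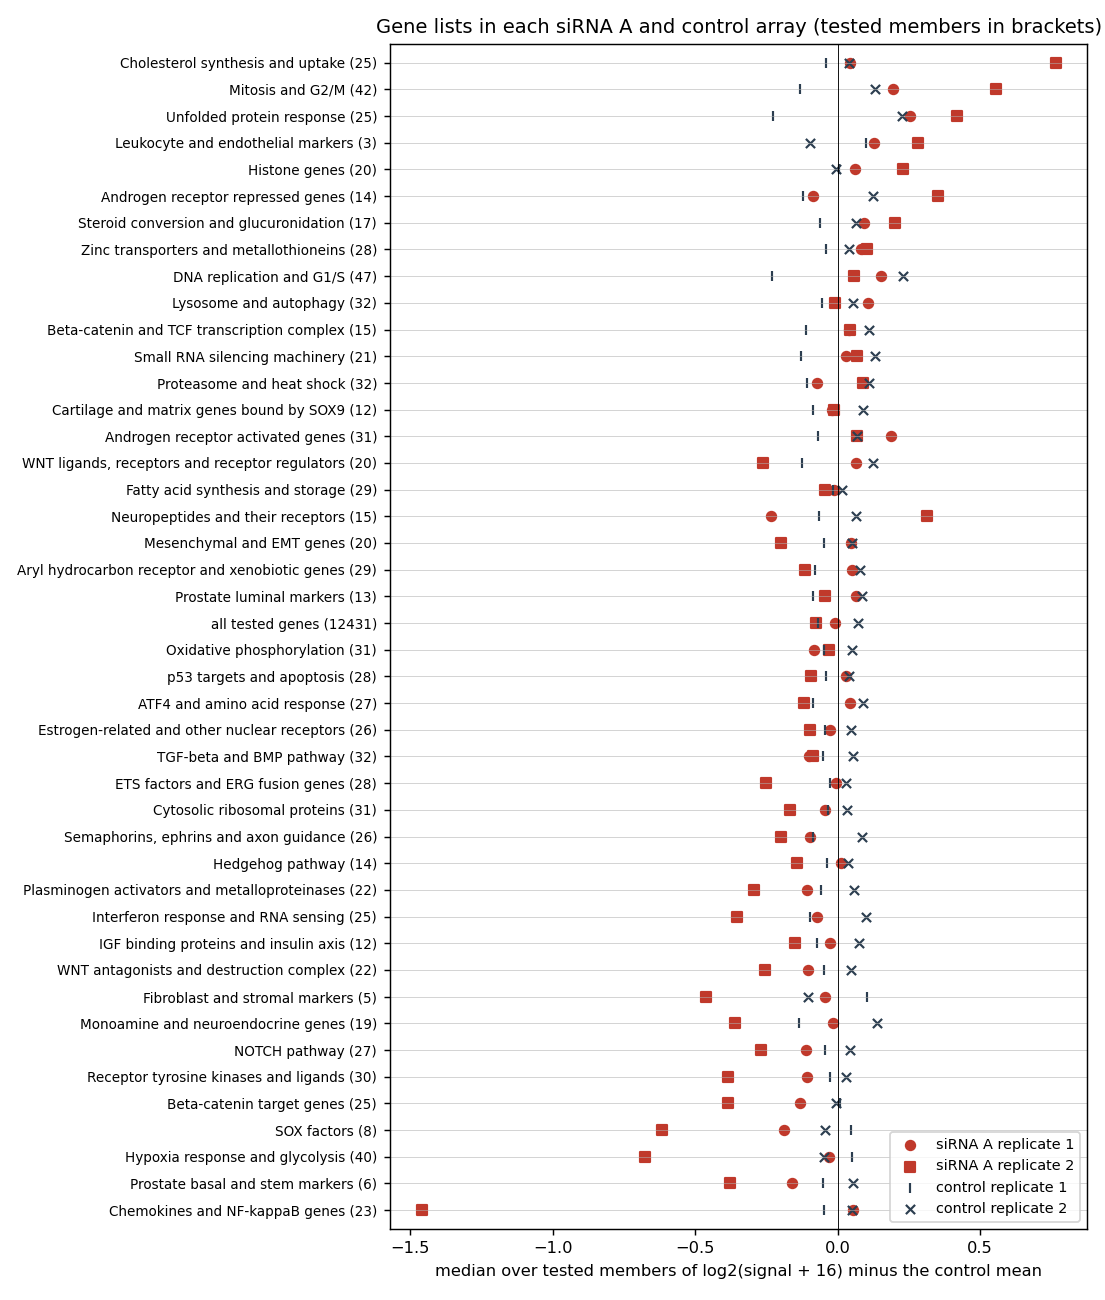
Median over the tested members of each gene list (number in brackets) of log2(signal + 16) minus the control mean, in siRNA A replicate 1 (red circles), siRNA A replicate 2 (red squares) and the control arrays (bars and crosses). For chemokines, hypoxia and cholesterol genes replicate 1 lies among the controls and replicate 2 apart from them, at -1.46, -0.68 and 0.77, while for mitosis genes both red points are to the right, at 0.19 and 0.56.

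The same control arrays served both siRNAs, so only the direct test of siRNA A against siRNA B separates them. Limma called 12 genes (0.0965%), 6 higher and 6 lower with siRNA A. Of the 13 genes 2-fold apart in each siRNA A array, DDC was the 1 called. DDC read 207.5 and 161.9 with siRNA B against 1139.7 and 1695 with siRNA A, a log2 difference of 2.82 (adjusted p = 0.0019). NPY, PTGER2 and ACOT7 also stood nearer to control with siRNA B, with siRNA B signals of 1817 and 4912, 269.2 and 561.2 and 323.3 and 436.9. None of these passed the direct test (adjusted p = 0.19, 0.17 and 0.27). ANHX read 22.4 and 5.2 with siRNA B, and no p is given for it. Side by side, the log2 differences from control with siRNA A and siRNA B were 1.34 and 1.28 for CDH26, -1.30 and -1.26 for SALL4, 1.38 and 1.62 for COXFA4L3 and 2.36 and 1.54 for HMGN2P46. For NPY6R they were -1.96 and -2.56, for MMP10 1.27 and 1.65, for GALNT7 -1.22 and -0.86 and for DNAH6 -1.32 and -0.83. The direct differences were 0.06 ± 0.30 for CDH26 and -0.04 ± 0.29 for SALL4 (limma standard error), which leaves room for differences of that size.

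MET, the receptor of hepatocyte growth factor, read 74.2 and 102.8 in control, 30.0 and 25.5 with siRNA A and 142.9 and 227.4 with siRNA B, so the siRNAs lay on opposite sides of control. The log2 difference between them was -2.17 (adjusted p = 0.0057), and other MET probe sets were at or below 39.4. DIO1, a thyroid hormone deiodinase, had the same shape at 67.6 and 61.2, 33.4 and 13.4 and 162.7 and 119.9. IGFBP5, an insulin-like growth factor binding protein, read 81.4 and 108.3, 60.6 and 60.7 and 259.4 and 350.9. Its log2 difference from control with siRNA A was only -0.52 (limma adjusted p = 0.999). Of its 6 probe sets 5 were lower with siRNA A, and a dim probe set was higher, at 4.8 and 1.2 in control against 26.4 and 15.1. For COL14A1, SLC25A39, RAB8B and SMCO4 the siRNA B arrays were the ones apart from control. Without its siRNA A arrays the mean of COL14A1 fell below the filter on dim signals, so its call is only a description. SLC25A39, a mitochondrial carrier, read 614.9 and 748.7 in control, 742.6 and 842.2 with siRNA A and 246.2 and 190.2 with siRNA B. The count of 12 became 0 without siRNA A replicate 2 or siRNA B replicate 2 (limma; 712 and 1163 genes at an unadjusted p below 0.05), 4 without siRNA A replicate 1, 55 without either control array and 288 without siRNA B replicate 1, and was 361 with the block.

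**Figure D4:**
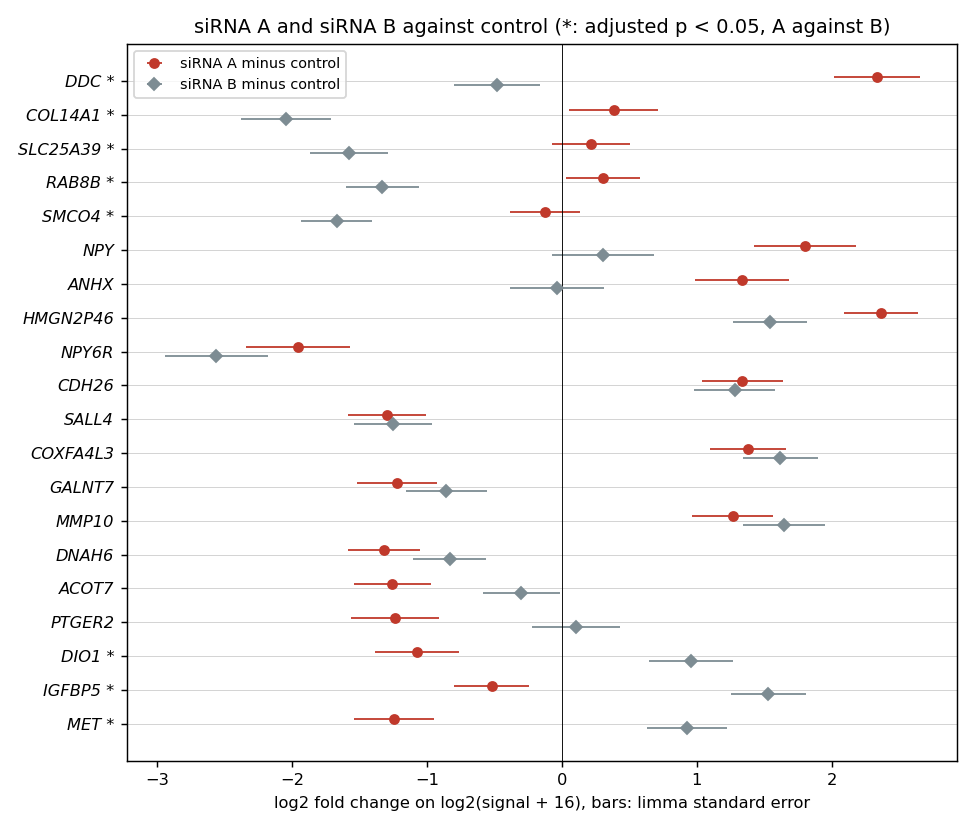
Log2 difference from control, with limma's standard error, for siRNA A (red) and siRNA B (grey), for the 13 genes 2-fold apart in each siRNA A array and the 8 named genes called between the siRNAs (marked with an asterisk; DDC is in both sets). The red point of DDC is at 2.34 and its grey point at -0.48, while the red and grey points of CDH26 and SALL4 lie close together. COL14A1 and ANHX would have been below the filter on dim signals without their siRNA A arrays.

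In RefSeq order COXFA4L3, SLC30A4 and HMGN2P46 lie close together on chromosome 15. The interval of HMGN2P46 (45511136-45556730) overlaps that of SLC30A4 (45479606-45522755). Their log2 differences were 1.38, 1.49 and 2.36 with siRNA A and 1.62, 1.83 and 1.54 with siRNA B. With siRNA A only HMGN2P46 passed the limma test (adjusted p = 0.0027, against 0.28 for COXFA4L3 and 0.23 for SLC30A4). The flanking tested genes AFG2B, BLOC1S6 and SQOR had log2 differences of -0.02, 0.29 and -0.28 with siRNA A, none past the test.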

How the data were processed

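Total RNA of 6 VCaP samples was labelled from 6 ug each, per the labels' protocols. The deposited values are 1 array intensity per probe set on a linear scale, and the submitters' processing notes name MAS5, with no version or scaling target. The authors' scaling was kept. Of 54675 probe sets, 62 were controls and not used. The annotation table pairs 41097 with 1 symbol, 1801 with several and 11777 with none. RefSeq's gene table held 41037 of the single-symbol identifiers, and 0 symbols needed updating. Each gene was read from its single-symbol probe set of highest mean, and dim genes were dropped, those with a mean under the median probe set (5.25 on log2(signal + 16), a signal of 22.0).

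The test was limma's (version 3.58.1, R 4.3.3), with lmFit on 3 groups over 6 arrays and 3 residual degrees of freedom. It used eBayes with an intensity trend and a Benjamini-Hochberg adjusted p below 0.05. The unblocked fit was also run on simulated arrays drawn independently, which does not check the block or deviations shared between arrays. A gene stood 2-fold apart when its nearest siRNA A and control arrays differed by at least 1 log2 unit. Named genes were SOX9, the genes called, the 15 widest gaps per direction, up to 8 genes called between the siRNAs, up to 4 members per list by smallest p and up to 8 per direction far from control in replicate 2 alone; of list members, those at an unadjusted p below 0.05 are given. The comparison, its genes and the gene lists were chosen with earlier results of these data known.

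Replicate numbers recur in all groups. Around the group means, arrays with 1 number deviated together, with r = 0.18 for siRNA A with control, 0.18 for siRNA B with control and 0.63 for both siRNAs. The numbers were taken as pairing, a choice made from the data, since the labels do not say that a number marks a shared culture. The fit with the replicate block stands beside the results it changes. It assumes 1 shift shared by all groups, which the controls shared only weakly, so its p-values are a description. Alternatives were other offsets, scalings, filters and probe set rules, no intensity trend, the block, other thresholds and each array left out. The number of arrays limits the precision. Sequences are RefSeq's (GRCh38.p14).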

Additional observations from a re-analysis of the deposited data

Results flagged for a closer look

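The direct limma test called 12 genes between siRNA A and siRNA B (adjusted p below 0.05), of which the 8 of smallest p are given. No gene was called after quantile normalization, median centring, a common trimmed mean or no filter on dim genes (1515, 1300, 1480 and 1371 genes at an unadjusted p below 0.05). The log2 difference, siRNA A minus siRNA B, was 2.82 for DDC, -2.05 for IGFBP5, -2.17 for MET and 2.43 for COL14A1. It was -2.03 for DIO1, 1.80 for SLC25A39, 1.64 for RAB8B and 1.55 for SMCO4. With siRNA A and siRNA B against control, the values were 2.34 and -0.48 for DDC, -1.24 and 0.93 for MET, -1.08 and 0.96 for DIO1 and -0.52 and 1.53 for IGFBP5. For COL14A1 they were 0.38 and -2.05, for SLC25A39 0.22 and -1.58, for RAB8B 0.31 and -1.33 and for SMCO4 -0.12 and -1.67. COL14A1 would have been below the filter on dim signals without its siRNA A arrays, so its call is only a description.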

How the results depend on the processing

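The 2 genes called for siRNA A against control became 0 after quantile normalization, with a common trimmed mean and without the filter (limma; 672, 634 and 898 genes at an unadjusted p below 0.05), 1 with median centring or the median over probe sets, 224 with the replicate block, and 0 to 18 with 1 array left out. The 7 genes higher in each siRNA A array became 14 at an offset of 1, 3 at an offset of 64, 47 at a distance of 0.5, 1787 at any distance, 13 over unfiltered probe sets (added after seeing the data) and 9 to 84 where a siRNA A or control array was left out. The 6 lower genes became 24 and 2 at these offsets, 3 with median centring, 11 without the filter, 11 as probe sets, 132 at a distance of 0.5, 2962 at any distance, 19 over unfiltered probe sets and 17 to 403 where a siRNA A or control array was left out. The 12 genes called for siRNA A against siRNA B became 0 after quantile normalization, median centring, with a common trimmed mean and without the filter (limma; 1515, 1300, 1480 and 1371 at an unadjusted p below 0.05), 4 with the median over probe sets, 6 without the intensity trend, 28 at an adjusted p below 0.1, 361 with the replicate block and 0 to 288 with 1 array left out.

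SOX9 kept its direction and stayed short of the threshold under every alternative run. COXFA4L3, DDC, HMGN2P46 and NPY6R stayed 2-fold apart in each siRNA A array under all 6 other offsets, scalings and probe set rules compared; ACOT7 did so under 1 of 6. With 1 array left out, the log2 difference ran from -5.37 to 0.13 for CCL2, -3.63 to 0.24 for CXCL8, -2.87 to 0.12 for LYPD6, -0.10 to 2.17 for ID1, -0.22 to 1.48 for S100P and -0.017 to 1.31 for TOX, each turning sign without siRNA A replicate 2. It ran from -0.30 to 0.049 for SMCO4, which turned without siRNA A replicate 2 or control replicate 2, and from -0.00498 to 0.77 for COL14A1, which turned without control replicate 2. With the median over probe sets IRS1 turned, to 0.0594. Of 2220 values for 126 single genes, 84 gained a call and 10 lost one. All 10 were of DDC and HMGN2P46, the genes that had a call to lose. The cause was not tested. With 2 arrays a group, dim genes near the filter are the least certain.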

Other observations

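Counting probe sets in place of genes, 9 stood at least 2-fold higher and 11 lower in each siRNA A array, of 23080 tested. Those of genes not among the 13 were chosen after their values were seen. SLC30A4 and BTG3, described above, had 1 each. FLOT1, a membrane raft protein, had 1 such probe set, at 16.3 and 10.4 in control and 62.8 and 68.8 with siRNA A. Its brighter probe sets did not separate, at 546.7 and 560.1 against 608.5 and 527.3 and at 569.7 and 528.1 against 582.8 and 515.7. SPTBN1, a spectrin of the membrane skeleton, had 1 at 67.5 and 40.7 in control and 4.8 and 3.4 with siRNA A, while its brightest read 2594 and 2863 against 2954 and 3061.

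BID, a BH3-only protein of apoptosis, was lower on all 3 of its probe sets above the filter. They read 226.7 and 244.0 in control against 152.7 and 143.7 with siRNA A, 215.3 and 234.5 against 99.0 and 94.3, and 106.2 and 139.7 against 62.5 and 57.7. No siRNA A array overlapped a control array on any of the 3, and none passed the limma test.

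DUSP4, a phosphatase of MAP kinases, was at least 2-fold higher than both controls in siRNA A replicate 1 but not in replicate 2, at 121.1 and 182.9 in control and 394.3 and 146.6 with siRNA A.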
